A study of Mus musculus with 816 samples.

Results

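Nitric oxide and itaconate are small molecules that macrophages and microglia make when they meet microbial products or inflammatory cytokines. Nos2, the inducible nitric oxide synthase, makes nitric oxide from arginine. It depends on arginine import by Slc7a2, on the rebuilding of arginine from citrulline by Ass1, and on tetrahydrobiopterin, a cofactor whose synthesis starts with Gch1. Arg2, the mitochondrial arginase, uses the same arginine. Irg1, now named Acod1, makes itaconate from aconitate in mitochondria, and Sod2, the mitochondrial superoxide dismutase, removes superoxide, which otherwise reacts with nitric oxide. The transcripts of these 7 genes were followed by name through every condition of the series. All 7 were found among the 45581 genes listed for cultured microglia. In the mice 6 of them were found among 29858 genes, and Irg1 was not analysed here in mice.

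The samples were 784 cultures of primary neonatal mouse microglia, bought from a supplier as 3 lots of cells and grown in multi-well plates, and CD11b-selected brain cells of 32 C57BL/6 mice. Cultures formed 98 conditions and were harvested 4, 24 or 72 h after a stimulus was added. The 40 untreated cultures of 24 h came from 6 plates and the 25 of 72 h from 4 plates, and no untreated culture was labelled 4 h. Female mice 2 months old received PBS or 2 mg/kg LPS for 4 h (4 mice each), and male mice labelled Naive were 2 months (11 mice) or 22 months old (13 mice), in 2 experiments (4 and 4 mice, and 7 and 9). The file headers use the word Vehicle for the 4 and 4 mice of the first of these experiments, and also for the PBS and LPS mice. Brains were perfused first, LPS was injected into the peritoneum, and CD11b is also carried by monocytes.

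Among the stimuli, LPS, a ligand of TLR4, was used at 0.0001 ug/ul (LPS_hi) or 0.00001 ug/ul (LPS_lo). P3C, a TLR2 ligand, was used at 0.001 ug/ul, and IC, a double-stranded RNA mimic, at 0.2 ug/ul. Cytokines were IFNa at 0.0008 ug/ul, IFNb and IFNg at 0.0001 ug/ul each, and TNFa at 0.000004 ug/ul. IL4, IL10 and IL13 were used at 0.00005 ug/ul, TGFb at 0.0001 ug/ul and GMCSF at 0.000005 ug/ul. Other agents were ATP, nicotine, norepinephrine, resveratrol, rapamycin, PGE2 and the chemokines CCL2 and CCL7. The label of a mixed condition gives only the dose of the agent named first, so the dose of a second agent in a mix is not given by the labels. A value is a gene's reads scaled to the mapped reads of its 3′-end library (CPM), without correction for length, so levels were compared between conditions and not between genes. By depth, 1 CPM stood for 1.00 to 38.2 mapped reads in a culture (median 4.67) and for 2.36 to 7.78 in a mouse (median 4.08). All 303 cultures of 72 h were of the lot May16, those of 4 h were of the lots Feb15 and March15, and 24 h cultures came from all 3 lots. The labels do not say whether wells came from separate batches of animals, and p-values measure the spread between these samples. Microglial markers were present in untreated cultures of 24 h (7 genes summing to 1117 to 3411 CPM) and in mice (21501 to 43119 CPM). Markers of other cells were present too: in untreated cultures of 24 h those of oligodendrocytes summed to 24.2 to 87.1 CPM, of endothelial cells to 12.9 to 168, of fibroblasts to 0.390 to 282 and of neurons to 0 to 32.2, and those of T cells to at most 6.60.

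The stretch just before the start of transcription is shown for 2 members, Irg1 and Sod2, because their levels moved most alike over the conditions. Of the 7 members, 4 were matched by symbol to RefSeq promoters (Ass1, Gch1, Irg1 and Sod2). The 250 bases upstream of Irg1 are chr14:103046762-103047011 and those of Sod2 chr17:13007589-13007838, both on the plus strand of GRCm38.p6. Capitals mark the only match found to 4 short motifs searched on both strands, the GAS motif TTCNNNGAA, which lies 185 to 177 bases before the start of Sod2.
Irg1: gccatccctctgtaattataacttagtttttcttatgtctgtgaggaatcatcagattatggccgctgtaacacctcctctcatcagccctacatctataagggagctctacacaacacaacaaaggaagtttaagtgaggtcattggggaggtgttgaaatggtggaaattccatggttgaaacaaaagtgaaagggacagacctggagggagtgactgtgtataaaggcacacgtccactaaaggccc
Sod2: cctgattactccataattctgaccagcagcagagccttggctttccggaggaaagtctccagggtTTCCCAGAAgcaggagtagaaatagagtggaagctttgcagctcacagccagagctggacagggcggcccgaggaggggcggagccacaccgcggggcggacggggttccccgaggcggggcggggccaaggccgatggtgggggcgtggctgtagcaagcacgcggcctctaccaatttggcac
In windows of 300 bases, 8.47% of 27025 promoters held the GAS motif, 8.57% the ISRE core GAAANNGAA, 7.93% the AP-1 motif TGANTCA and 4.55% the NF-kB type motif GGGANNNTCC. The windows of Irg1, Ass1 and Gch1 held none of these letters. A match describes the letters and does not show binding.

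LPS raised the nitric oxide and itaconate genes together. A member was called in cultures when its adjusted p was under 0.05 and its difference on the log2(CPM + 1) scale was at least 1. LPS_hi for 24 h called 6 of 7 members higher than untreated, where 19% of all genes tested were called in either direction, and Arg2 was the exception. The same 6 were called with LPS_lo at 24 h (20.1% of all genes) and with LPS_hi at 4 h (39.6%). No untreated cultures of 4 h were labelled, so the 4 h cultures were compared with untreated cultures of 24 h. Other cultures of 4 h on the same 2 plates, given the chemokines CCL7 or CCL2 (7 each), held 13 to 88.5 and 11.1 to 120 CPM of Irg1 and 1.47 to 10.8 and 0.851 to 14 CPM of Nos2, far below LPS_hi of 4 h. With CCL7 or CCL2 as the reference, the same 6 members were called (5.08 ± 0.64 and 5.42 ± 0.64 for Irg1, 5.79 ± 0.72 and 6.29 ± 0.72 for Nos2). The median difference of the 7 members was 4.15 with LPS_hi at 24 h and 3.11 at 4 h, against -0.21 and -0.65 over all genes tested. Every comparison with untreated cultures of one time point shares the same control wells.

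The other stimuli of 24 h called smaller groups of members. P3C called 5 of 7 higher (27.2% of all genes were called) and IC also 5 (12.7%), in both cases Irg1, Slc7a2, Ass1, Gch1 and Sod2. IFNa called 4 higher (15.6%), IFNg 4 (10.7%) and TNFa 4 (4.95%), but with different members, while IFNb called 2 (9.75%) and GMCSF 2 (5.00%). Slc7a2 was called higher and Irg1 lower with IL4 (2 members, 3.73% of genes), IL13 (2 members, 2.18%) and TGFb (2 members, 3.02%), and Irg1 alone was called lower with IL10 (1.19%). Beside LPS_lo for 24 h, resveratrol called 2 members lower (3.17%) and rapamycin none (0.568%). With the plate as a term, Irg1 was no longer called with IL4, IL13, IL10, TGFb or GMCSF. Nor was Slc7a2 with TGFb, or Nos2 with IFNa or GMCSF. The same term newly called Nos2 with IC, Irg1 with IFNb and with resveratrol beside LPS_lo, and Slc7a2 with GMCSF.

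At 72 h, LPS_hi called 5 of 7 members higher (14.9% of all genes), LPS_lo 5 (6.65%), P3C 5 (5.99%) and TNFa with IFNg 5 (8.11%). IFNg alone called 2 higher (8.57%) and IC none (4.10%). TNFa alone called 1 lower (22.5%). When a second agent was set against LPS_lo alone, IFNg called 2 higher (1.62% of genes), IL10 3 lower (0.860%), IL4 1 higher and 2 lower (1.22%), IL13 1 higher (0.0323%), IL4 with IL10 and IL13 1 higher and 3 lower (3.43%), and TGFb 2 lower (1.86%). The groups with IL4, IL10, IL13 or the mix of these each shared only 1 plate with LPS_lo alone. PGE2 called 1 member lower than P3C alone (2.30%). With the plate as a term it also called Slc7a2 lower (-2.06 ± 0.64, limma adjusted p = 0.0481) and Ass1 higher (1.66 ± 0.49, adjusted p = 0.0309). IFNb called none beside TNFa, P3C and PGE2 (1.97%), where Nos2 was 0 to 116 CPM with IFNb and 0 to 37.1 CPM without it. Set against LPS_hi alone at 4 h, ATP called 1 lower (2.85%), nicotine 1 lower (1.64%) and norepinephrine none (2.28%). In the 4 comparisons with no member called by limma, the count of members at an unadjusted p under 0.05 was 0 for rapamycin, 1 for IC at 72 h (Gch1), 1 for norepinephrine (Arg2) and 0 for IFNb. The exact rank-sum test gave 0, 0, 0 and 2 (Gch1 and Sod2) at that level.

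**Figure D1:**
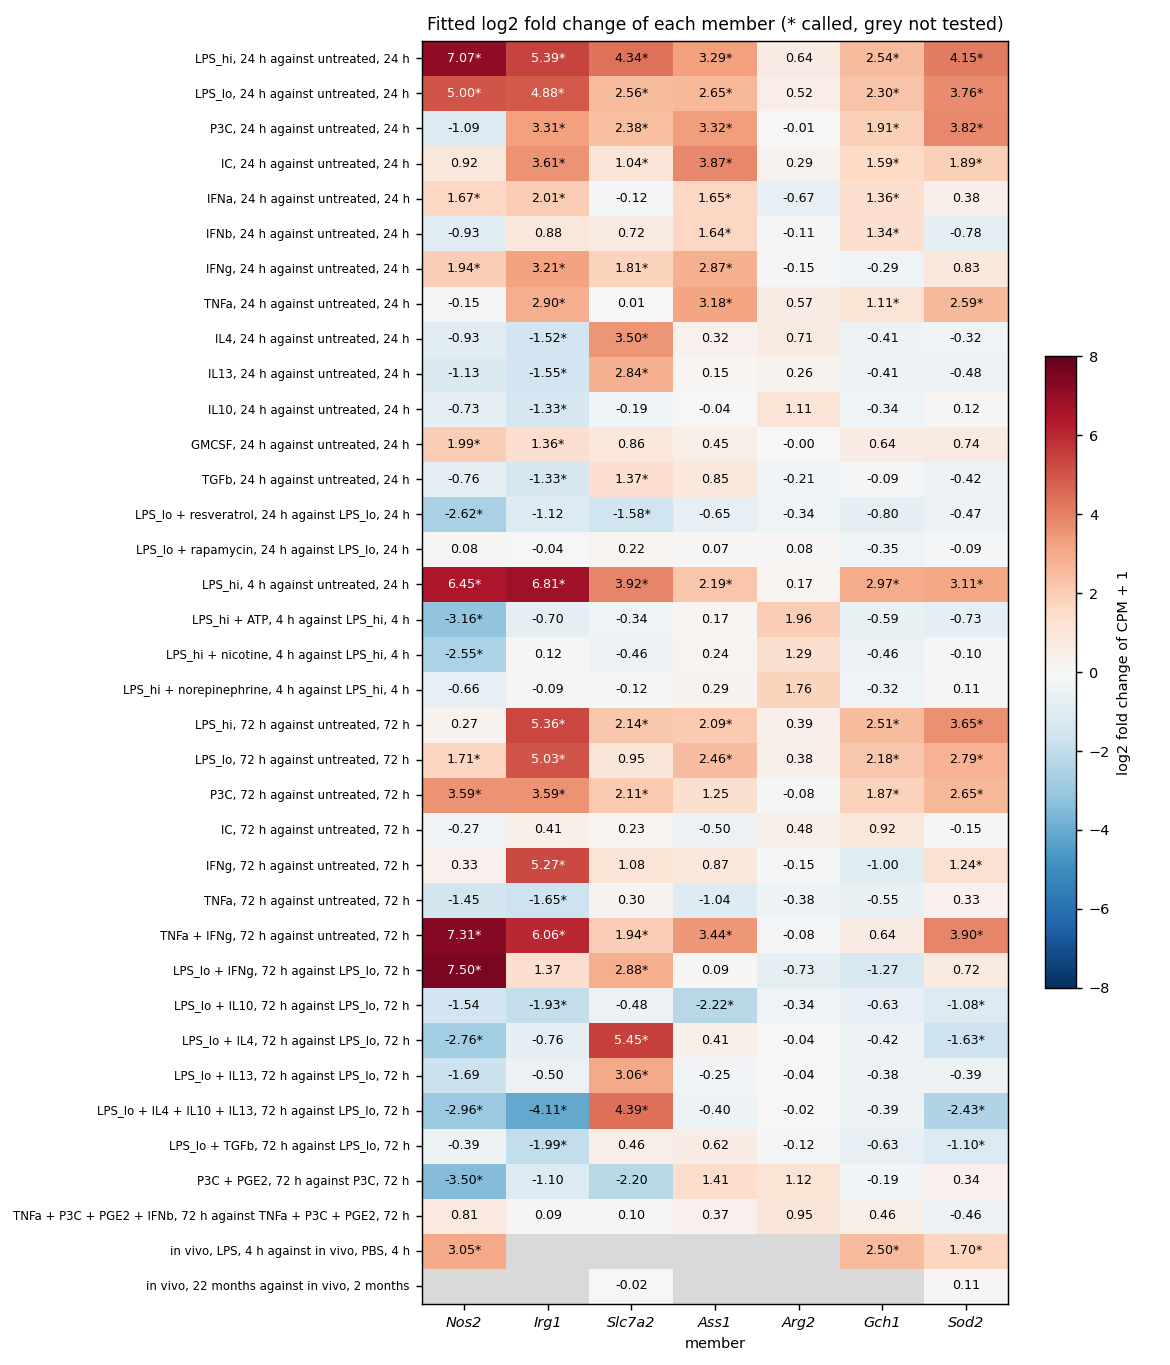
Fitted difference of each member in each comparison on the log2(CPM + 1) scale, where red is higher in the first named group, blue lower, an asterisk marks a call and grey a gene not tested. Arg2 has no asterisk in any comparison, and the largest value for Nos2 is 7.50, for LPS_lo with IFNg against LPS_lo at 72 h.

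Nos2, the enzyme that makes nitric oxide, ranged from a condition mean of 0 to 1837 CPM. In untreated cultures of 24 h it lay between 0 and 22.0 CPM (median 2.64). With LPS_hi for 24 h the 18 cultures held 63.4 to 2055 CPM (median 617), and the 7 cultures with LPS_lo held 33.5 to 565 (median 133). Neither range overlapped with untreated cultures, and the differences were 7.07 ± 0.33 (SE, adjusted p = 1.17e-63) and 5.00 ± 0.48 (adjusted p = 2.38e-20). After 4 h of LPS_hi, Nos2 lay between 158 and 796 CPM in 7 cultures, again without overlap (6.45 ± 0.55, adjusted p = 9.26e-19).

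Plates and cell lots differed widely in how much Nos2 the same dose of LPS gave. On plate MGm161010B, of lot May16, LPS_hi gave 1480 to 2055 CPM after 24 h, and on MGm160926B, of lot Feb15, 142 and 290 CPM. The single LPS_hi culture on MGm160926A, of lot Feb15, was the lowest of the 18. Untreated wells of MGm160926B (6.93 to 22.0 CPM) and MGm161010B (7.84 to 18.9) were also higher than those of the other 4 plates, which reached at most 3.62 CPM. Within each of the 6 plates Nos2 was higher with LPS_hi, by 3.89 to 8.81 on the log2 scale.

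**Figure D2:**
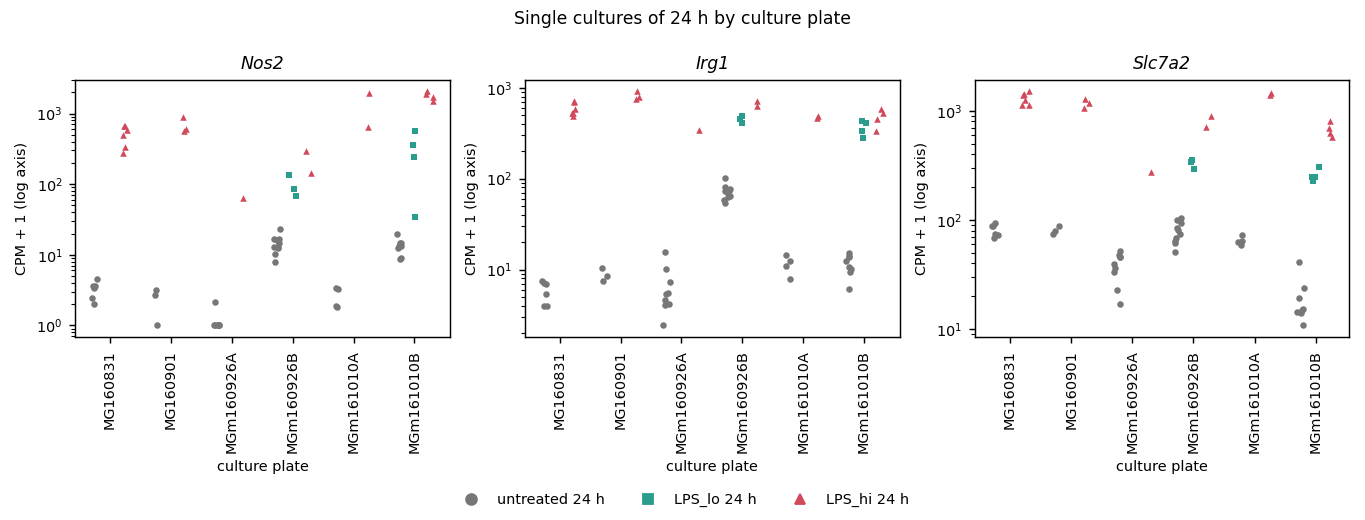
CPM + 1 on a log axis for Nos2, Irg1 and Slc7a2 in single cultures of 24 h, by culture plate; grey circles are untreated, green squares LPS_lo and red triangles LPS_hi. LPS_hi lies above untreated on every plate, and untreated Irg1 on MGm160926B (52.4 to 101 CPM) lies above all other untreated cultures (at most 14.7 CPM).

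The interferons and GMCSF gave much less Nos2. IFNg for 24 h gave 0 to 91.2 CPM (median 35.3, n = 9), which overlapped with untreated cultures (1.94 ± 0.43, adjusted p = 1.56e-04), and the gain within plates was 4.06, 4.36 and 1.09. IFNa (7.48 to 35.5 CPM, n = 8) and GMCSF (6.35 to 52.1 CPM, n = 8) were called higher, by 1.67 and 1.99, but both were grown on the plates MGm160926B and MGm161010B. Within those plates the differences were -0.03 and 0.23 for IFNa and -0.29 and 1.13 for GMCSF, and with the plate as a term they were 0.41 (adjusted p = 0.364) and 0.73 (adjusted p = 0.131). These calls of Nos2 did not hold within plates. IC showed the reverse: 0.531 to 34.2 CPM was not called (0.92 ± 0.46, adjusted p = 0.146), but the difference was 2.05 and 3.31 within its plates and 2.30 ± 0.33 with the plate as a term (adjusted p = 4.81e-10).

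P3C, although it was called for the supply genes, gave Nos2 between 0.653 and 3.13 CPM after 24 h (n = 6), inside the untreated range (-1.09 ± 0.52, adjusted p = 0.0867), and within its plates the difference was -0.10 and 0.83. TNFa for 24 h gave 0 to 6.01 CPM (n = 7, -0.15 ± 0.48, adjusted p = 0.911), but it was higher within each of 3 plates, by 0.82 to 1.40. With the plate as a term the difference for TNFa was 0.80 ± 0.34 (adjusted p = 0.114). IFNb (0 to 4.70 CPM), IL4 (0 to 3.62), IL13 (0 to 3.80), IL10 (0 to 6.11) and TGFb (0 to 3.71) also stayed within the untreated range, and none was called.

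After 72 h the order of the stimuli for Nos2 was different. LPS_hi gave 0 to 43.3 CPM (median 0, n = 13) beside 0 to 13.8 CPM in 25 untreated cultures (0.27 ± 0.48, adjusted p = 0.762). LPS_lo gave 0.663 to 35 CPM (median 12, n = 11) and was called (1.71 ± 0.51, adjusted p = 0.0144). P3C gave 1.27 to 105 CPM (median 57.3, n = 6; 3.59 ± 0.64, adjusted p = 2.84e-06), and TNFa with IFNg 87.1 to 1645 CPM (n = 8) with no overlap with untreated (7.31 ± 0.57, adjusted p = 3.27e-27). Untreated cultures fell apart by plate here too, with 7.77 to 13.8 CPM on MGm160930B and at most 1.38 CPM on the other 3 plates.

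IFNg set beside LPS_lo gave the highest condition mean of Nos2 in the series (1837 CPM). In the same lot of cells, May16, the 4 LPS_hi cultures of 24 h had a mean of 1782 CPM and a median of 1796. The 7 cultures with LPS_lo and IFNg for 72 h held 965 to 3866 CPM (median 1233), above all 11 with LPS_lo alone (7.50 ± 0.68, adjusted p = 1.41e-20), and the difference was 7.19 and 8.28 within the 2 plates. IFNg alone at 72 h gave 0 to 15.2 CPM (n = 6, 0.33 ± 0.64, adjusted p = 0.826).

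A number of second agents lowered Nos2. With ATP beside LPS_hi for 4 h it held 25.8 to 83.1 CPM (n = 6), below all 7 cultures with LPS_hi alone (-3.16 ± 0.75, adjusted p = 0.00441). With nicotine it held 15.8 to 112 CPM (n = 8), again without overlap (-2.55 ± 0.70, adjusted p = 0.0311). Both differences had the same sign on both plates (-2.37 and -3.72 for ATP, -2.24 and -2.69 for nicotine), but the call for nicotine was not made without plate MGm160926B (-2.69) or without the filter on low genes. Norepinephrine gave 36.2 to 696 CPM (n = 8) and moved Nos2 up on one plate (0.93) and down on the other (-2.09).

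Resveratrol beside LPS_lo for 24 h gave 11.4 to 63.5 CPM of Nos2 (n = 8), overlapping with LPS_lo alone (33.5 to 565), and was called lower (-2.62 ± 0.61, adjusted p = 0.00267; -2.16 and -2.92 within plates). Rapamycin gave 36.4 to 546 CPM, a difference of 0.08 ± 0.63. At 72 h the 5 cultures with LPS_lo and IL4 held 0, 2.52, 0, 0.133 and 0 CPM (-2.76 ± 0.76, adjusted p = 0.0305). The 5 with LPS_lo, IL4, IL10 and IL13 held 0.738, 0.146, 0, 0 and 0 CPM (-2.96 ± 0.76, adjusted p = 0.00596). In both sets most cultures were at or near 0, and both ranges met that of LPS_lo alone, whose lowest culture held 0.663 CPM. The call for IL4 was lost when culture 1, 3, 4 or 5 was left out (-2.66 to -2.70). PGE2 beside P3C gave 0 to 9.72 CPM (n = 7, -3.50 ± 0.78, adjusted p = 0.00138).

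**Figure D3:**
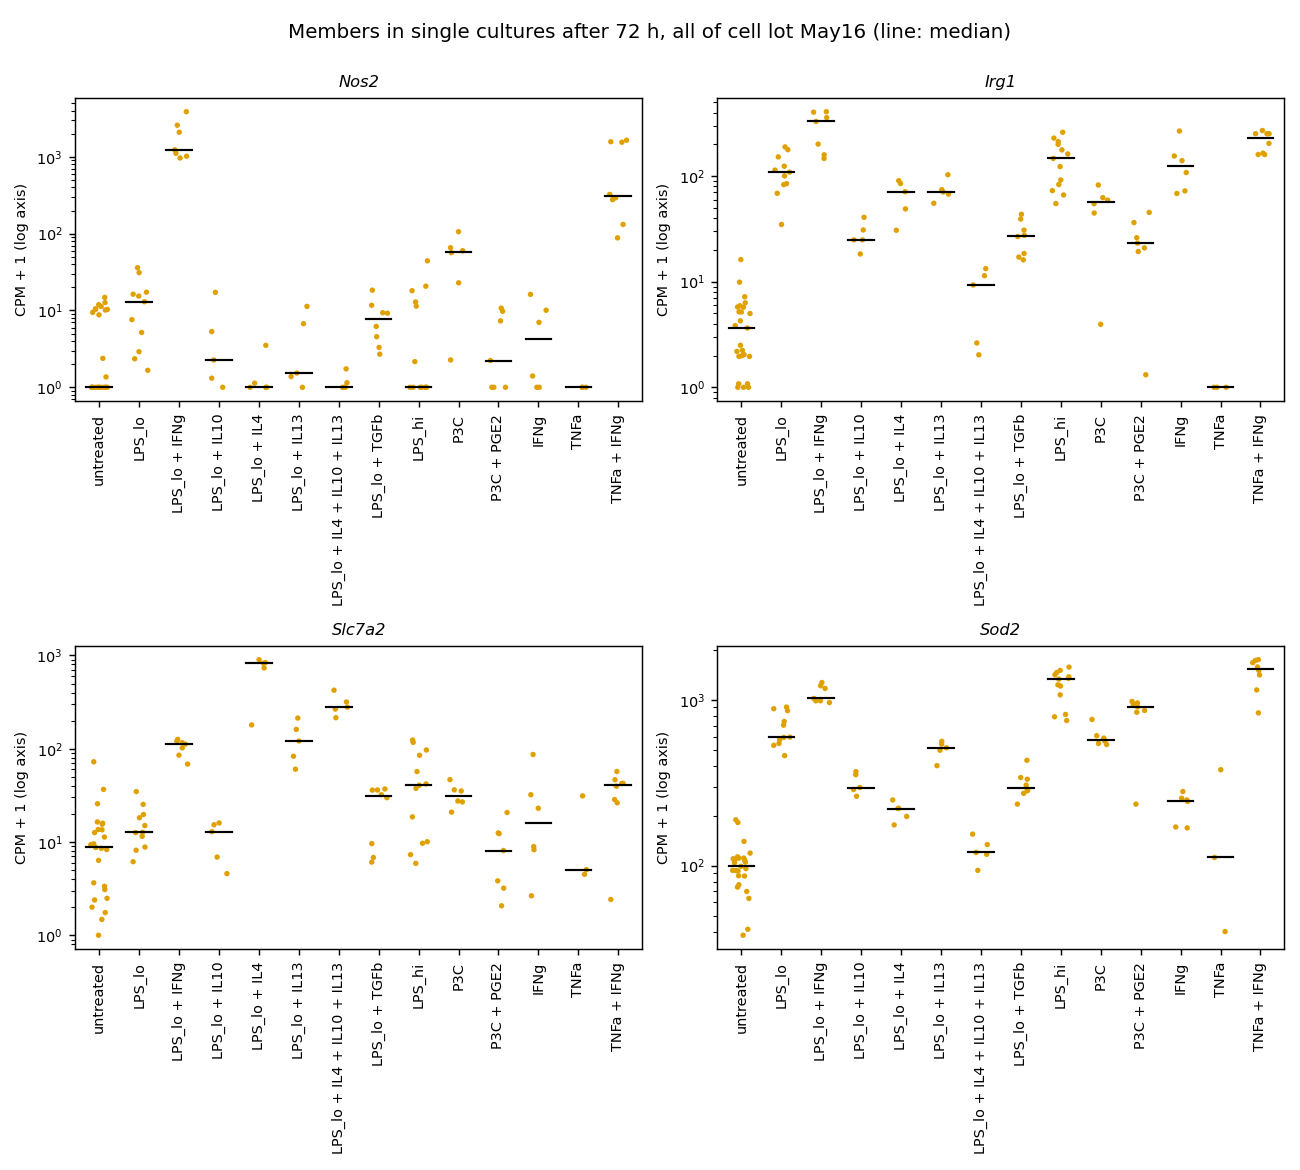
CPM + 1 on a log axis for Nos2, Irg1, Slc7a2 and Sod2 in single cultures of 72 h, with the median as a line. Nos2 is highest with LPS_lo and IFNg (965 to 3866 CPM), Slc7a2 with LPS_lo and IL4 (179 to 900 CPM), and Irg1 is lower with LPS_lo, IL4, IL10 and IL13 (1.03 to 12.3 CPM) than in any LPS_lo culture.

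Slc7a2, the cationic amino acid transporter CAT2 that brings arginine into the cell, answered both LPS and IL4. Untreated cultures of 24 h held 9.80 to 103 CPM (median 61.2). LPS_hi for 24 h gave 275 to 1503 CPM (median 1128; 4.34 ± 0.26, adjusted p = 3.25e-45) and LPS_hi for 4 h gave 557 to 889 (3.92 ± 0.30, adjusted p = 1.92e-21). IL4 for 24 h gave 371 to 678 CPM in 11 cultures (3.50 ± 0.31, adjusted p = 1.93e-22) and IL13 gave 234 to 452 in 9 (2.84 ± 0.34, adjusted p = 1.28e-12). None of these 4 ranges overlapped with untreated cultures, and the gain within plates was 2.79 to 3.38 for IL4 and 2.21 to 2.81 for IL13. In the same IL4 cultures Nos2 was 0 to 3.62 CPM, so Slc7a2 was high there without high Nos2.

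The other ligands of 24 h gave smaller fitted differences of Slc7a2. LPS_lo gave 224 to 353 CPM (n = 7; 2.56 ± 0.38, adjusted p = 8.85e-10). IFNg gave 68.1 to 248 (n = 9; 1.81 ± 0.34, adjusted p = 3.39e-06), and IC 39.7 to 215 (n = 8; 1.04 ± 0.36, adjusted p = 0.0210). The 6 P3C cultures held 222, 222, 23.9, 581, 533 and 618 CPM (2.38 ± 0.40, adjusted p = 1.04e-07), the first 3 of them on plate MGm160926A, and the one at 23.9 stood apart from the rest. TGFb was called (36.8 to 185 CPM, 1.37 ± 0.36, adjusted p = 0.00796) but with the plate as a term the difference was 0.80 (adjusted p = 0.0124), under the minimum. GMCSF stayed under the minimum difference (0.86), but it was higher within both of its plates (1.12 and 1.37) and was called with the plate as a term (1.19 ± 0.21, adjusted p = 5.60e-06). IFNa (-0.12), TNFa (0.01) and IL10 (-0.19) were not called, and for IL10 the difference was -0.61 to -0.49 within its 3 plates and -0.62 with the plate as a term (adjusted p = 0.0875).

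At 72 h Slc7a2 was 0 to 71.4 CPM in untreated cultures (median 7.73). LPS_lo alone gave 5.14 to 33.7 CPM, while LPS_lo with IL4 gave 179, 824, 837, 900 and 733 CPM, all above every LPS_lo culture (5.45 ± 0.66, adjusted p = 1.21e-11). IL13 beside LPS_lo gave 212, 160, 120, 82.0 and 59.3 CPM (3.06 ± 0.66, adjusted p = 0.0227), and the mix of IL4, IL10 and IL13 gave 265, 278, 214, 423 and 316 CPM (4.39 ± 0.66, adjusted p = 4.29e-08). Both were also above every LPS_lo culture, but the IL13 call was lost when culture 1, 2 or 3 was left out (differences of 2.84 to 3.04). On the 1 plate shared with LPS_lo alone, the differences were 5.04 for IL4, 2.96 for IL13 and 3.84 for the mix. IFNg beside LPS_lo gave 67.4 to 125 CPM (2.88 ± 0.59, adjusted p = 3.01e-04), without overlap. IL4 alone for 72 h, in 3 cultures, averaged 522 ± 40.3 CPM (SD).

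Resveratrol lowered Slc7a2 beside LPS_lo at 24 h to 60.1 to 171 CPM, below every culture with LPS_lo alone and was called (-1.58 ± 0.48, adjusted p = 0.0337; -1.54 and -1.67 within plates). That call was lost without plate MGm160926B (-1.67, adjusted p = 0.163). LPS_hi (4.90 to 123 CPM; 2.14 ± 0.42, adjusted p = 1.55e-05), P3C (19.9 to 45.6; 2.11 ± 0.56, adjusted p = 0.00468) and TNFa with IFNg (1.42 to 56.0; 1.94 ± 0.50, adjusted p = 0.00234) were called at 72 h.

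Ass1, argininosuccinate synthase, rose with every microbial ligand of 24 h and with TNFa and the interferons. Untreated cultures of 24 h held 0 to 21.1 CPM (median 4.54). IC gave 58.4 to 141 CPM (n = 8; 3.87 ± 0.42, adjusted p = 3.83e-16), P3C 37.6 to 89.0 (n = 6; 3.32 ± 0.48, adjusted p = 4.52e-10) and TNFa 31.9 to 68.1 (n = 7; 3.18 ± 0.45, adjusted p = 1.54e-09). All 3 were above every untreated culture. IFNg gave 17.3 to 81.9 CPM (2.87 ± 0.40, adjusted p = 2.67e-10), IFNa 3.00 to 68.9 (1.65 ± 0.42, adjusted p = 0.00108) and IFNb 2.19 to 29.9 (1.64 ± 0.39, adjusted p = 4.08e-04), each with some overlap. The call for IFNa was lost without plate MGm160926B (0.34, adjusted p = 0.610).

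With LPS the level of Ass1 differed between cultures of different lots of cells. The LPS_hi and untreated cultures of lot May16 at 24 h were all on plate MGm161010B, so lot and plate cannot be told apart there. LPS_hi for 24 h gave 95.5 to 134 CPM in 3 cultures of lot Feb15, 52.9 to 119 in 11 of March15 and 2.03 to 17.4 in 4 of May16, where untreated cultures held 0 to 2.47. The pooled difference was 3.29 ± 0.31 (adjusted p = 1.14e-21), and within plates it was 2.16 to 4.26 on all 6. LPS_lo gave 109, 143 and 148 CPM on MGm160926B and 10.2, 9.75, 7.12 and 19.1 on MGm161010B, of lot May16 (2.65 ± 0.45, adjusted p = 1.32e-07). Lot May16, with the lowest mean of Ass1 under LPS_hi (9.14 CPM), had the highest mean of Nos2 (1782 CPM).

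In 72 h cultures Ass1 was 0 to 6.20 CPM when untreated. LPS_hi gave 1.34 to 20.4 CPM (2.09 ± 0.34, adjusted p = 9.55e-08), LPS_lo 3.81 to 18.5 (2.46 ± 0.36, adjusted p = 3.96e-09) and TNFa with IFNg 5.84 to 54.9 (3.44 ± 0.40, adjusted p = 1.11e-13). IL10 beside LPS_lo gave 0.943, 3.82, 3.89, 0 and 0.824 CPM (-2.22 ± 0.54, adjusted p = 0.00957), and only the 2 highest of these cultures reached the lowest with LPS_lo alone (3.81 CPM). This call was lost when culture 4 or 5 was left out (-1.90 and -2.12).

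Gch1, GTP cyclohydrolase, which starts tetrahydrobiopterin synthesis, rose with TLR ligands, type I interferons and TNFa and was not called with IFNg. Untreated cultures of 24 h held 4.89 to 23.9 CPM (median 9.83). LPS_hi gave 27 to 105 CPM at 24 h (2.54 ± 0.18, adjusted p = 2.70e-36) and 64.6 to 106 at 4 h (2.97 ± 0.34, adjusted p = 1.31e-12), and LPS_lo 38.3 to 75.4 (2.30 ± 0.25, adjusted p = 3.95e-16). None of these ranges overlapped with untreated cultures. P3C (12.5 to 66.5 CPM, 1.91), IC (18.4 to 45.6, 1.59), IFNa (15.3 to 45.8, 1.36), IFNb (13.7 to 49.0, 1.34) and TNFa (8.54 to 36.3, 1.11) were called with adjusted p of at most 6.52e-04, and each overlapped.

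IFNg for 24 h gave 2.16 to 15.4 CPM of Gch1 (n = 9; -0.29 ± 0.23, adjusted p = 0.441). The 95% interval of that difference was -0.73 to 0.16 on the log2 scale, and values within plates were -0.35, 0.69 and -0.95. At 72 h IFNg gave 0 to 12.4 CPM (-1.0 ± 0.42, adjusted p = 0.120) and TNFa with IFNg 1.90 to 29.3 (0.64 ± 0.38, adjusted p = 0.367), while LPS_hi gave 26.4 to 90.7 (2.51 ± 0.32, adjusted p = 5.31e-12), LPS_lo 21 to 56.7 (2.18 ± 0.34, adjusted p = 2.79e-08) and P3C 20.6 to 57.2 (1.87 ± 0.42, adjusted p = 4.75e-04). IFNg beside LPS_lo gave 9.40 to 29.6 CPM where LPS_lo alone gave 21 to 56.7 (-1.27 ± 0.45, adjusted p = 0.167). In the cultures of LPS_lo with IFNg, the condition with the highest mean of Nos2, Gch1 had a median of 17.1 CPM against 39.9 with LPS_lo alone.

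Arg2, the mitochondrial arginase, was called by limma in 0 of the 34 comparisons of cultures. Its unadjusted p was under 0.05 in 5 of them (LPS_hi at 24 h, IL10, ATP, norepinephrine and PGE2), and the exact rank-sum p in 3 (IFNa, IL4 and IL10). It reached a mean of 5 CPM in 7 of 98 conditions and was listed at 0 in 18 of the 40 untreated cultures of 24 h and 16 of the 25 of 72 h. With LPS_hi for 24 h it held 0 to 29.5 CPM (median 1.66; 0.64 ± 0.30, adjusted p = 0.0758). The highest means were those of TNFa with PGE2 at 72 h (18.8 ± 16.8 CPM, SD, n = 8), LPS_hi with norepinephrine at 4 h (15.4 ± 26.8, n = 8) and ATP at 4 h (14.5 ± 18.1, n = 5), and each of these groups held a culture at 0.

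On plate MGm161010A the 4 cultures with LPS_hi and ATP for 4 h held 6.17 to 21.9 CPM of Arg2, the 4 with nicotine 3.97 to 42.5 and the 4 with norepinephrine 1.26 to 79.4, beside 0 to 1.81 with LPS_hi alone. On plate MGm160926B the same groups held at most 4.90, 2.81 and 9.28 CPM beside 0 to 7.09. The pooled differences (1.96 ± 0.74, 1.29 ± 0.69 and 1.76 ± 0.69) did not pass the test, with adjusted p of 0.161, 0.422 and 0.187. Without plate MGm160926B, an alternative chosen after the values were seen, the differences were 3.18, 3.08 and 2.87, and all 3 passed.

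**Figure D4:**
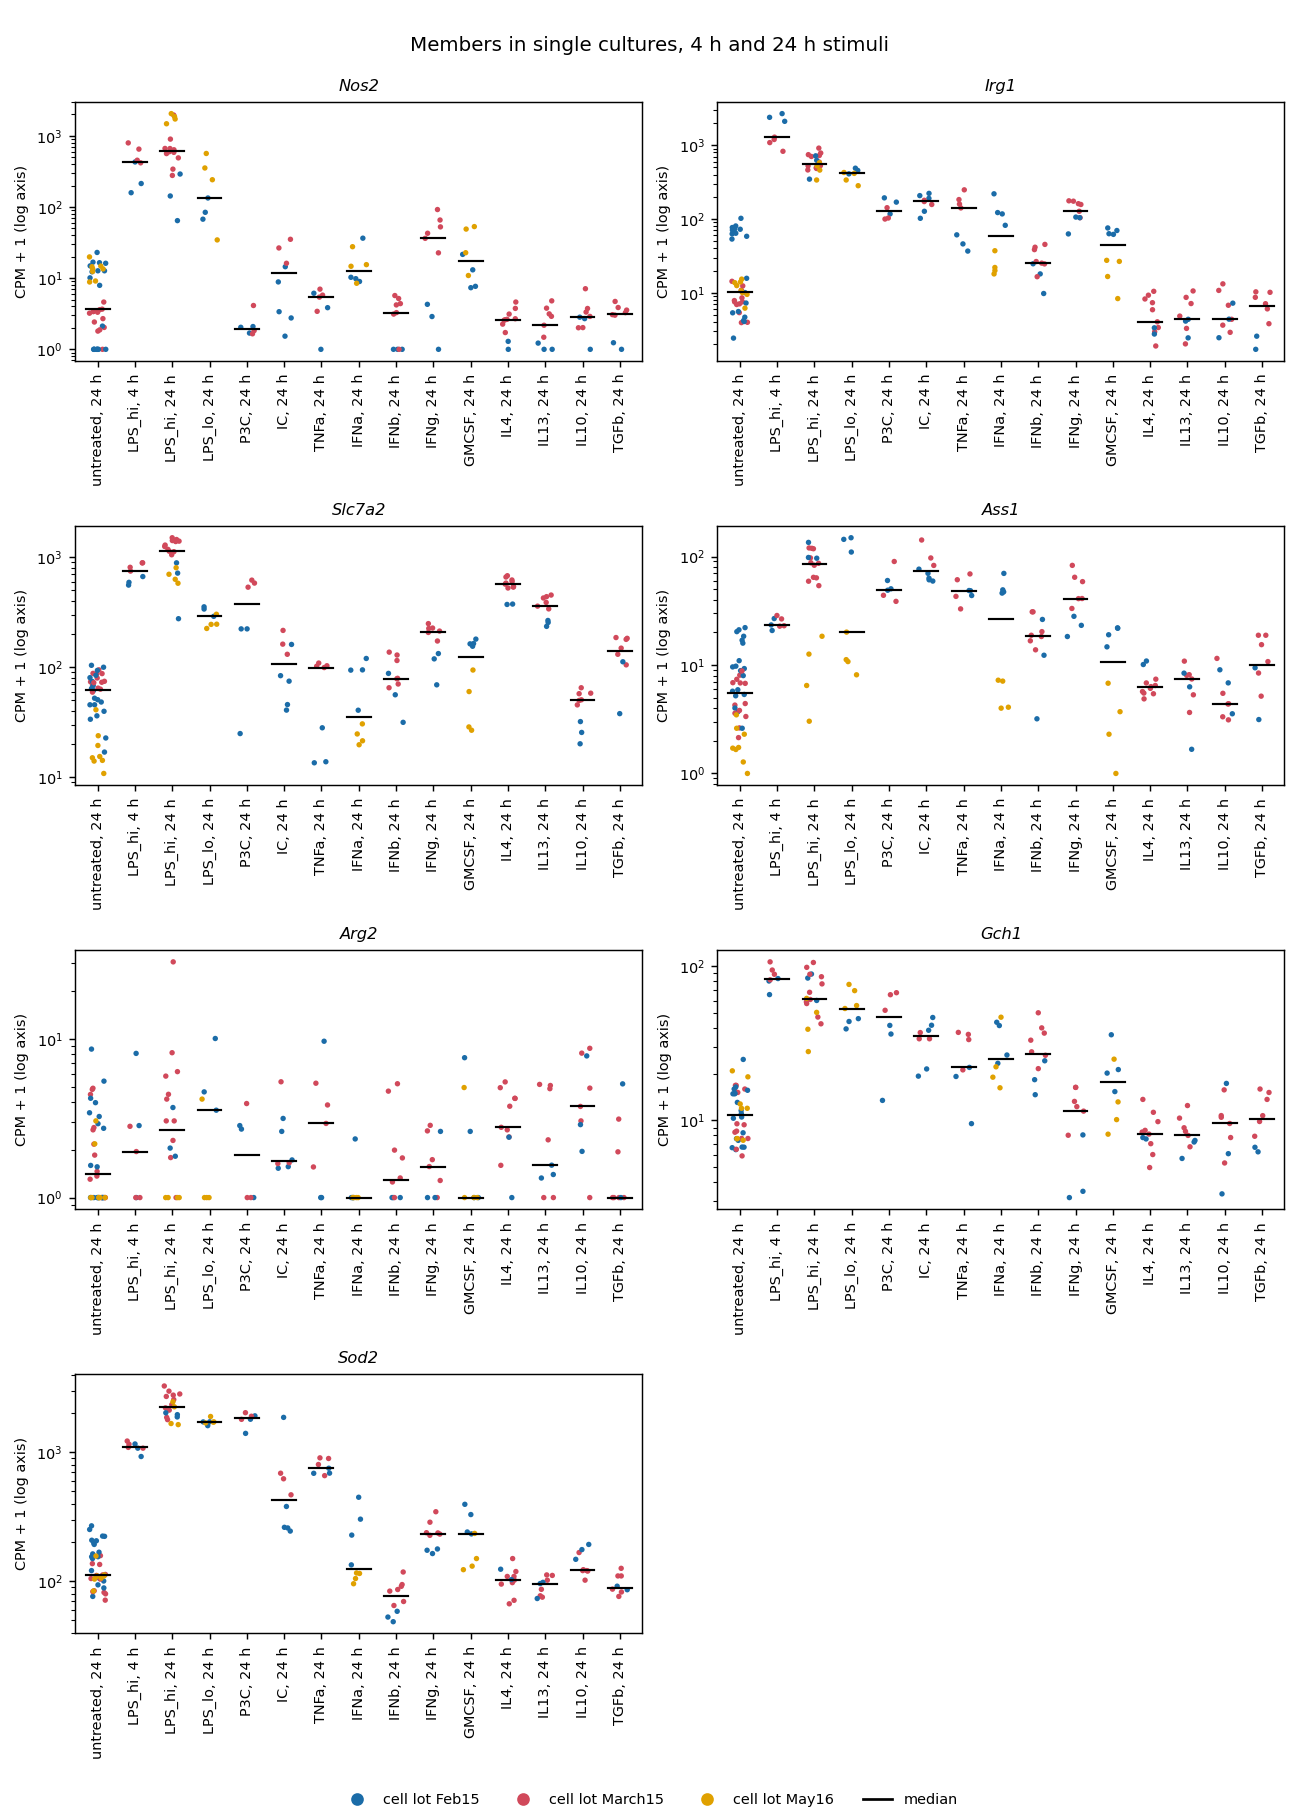
CPM + 1 on a log axis for the 7 members in single cultures of 4 h and 24 h stimuli, coloured by lot of cells, with the median as a line. LPS_hi and LPS_lo lie above untreated for Nos2, Irg1, Slc7a2, Gch1 and Sod2 without overlap and Slc7a2 is also high with IL4 and IL13.

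Irg1, the itaconate-making enzyme, was called in more comparisons with untreated cultures than any other member, 14 times higher and 5 times lower among 21. The lower calls with IL4, IL13, IL10 and TGFb and the higher call with GMCSF were lost with the plate as a term. The lower call with TNFa at 72 h was lost when any single culture of that group was left out. LPS_hi for 4 h gave 824 to 2671 CPM (median 1282; 6.81 ± 0.49, adjusted p = 1.54e-23), LPS_hi for 24 h 336 to 910 (median 551; 5.39 ± 0.27, adjusted p = 2.62e-60) and LPS_lo for 24 h 281 to 486 (4.88 ± 0.38, adjusted p = 8.96e-29). No culture of these 3 groups overlapped with the untreated range of 1.43 to 101 CPM. IC (101 to 221 CPM, 3.61 ± 0.36), P3C (98.7 to 192, 3.31 ± 0.41), IFNg (61.7 to 175, 3.21 ± 0.34), TNFa (35.7 to 247, 2.90 ± 0.38) and IFNa (17 to 218, 2.01 ± 0.36) were also called, with adjusted p of at most 1.23e-06. For IFNa the difference was 0.85 and 1.07 within its plates.

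The upper end of the untreated range came from 1 plate. The 10 untreated cultures of MGm160926B held 52.4 to 101 CPM of Irg1, and the 30 of the other 5 plates 1.43 to 14.7. IL4 (0.901 to 9.46 CPM, n = 11), IL13 (1.03 to 9.58, n = 9), IL10 (1.46 to 12.2, n = 9) and TGFb (0.713 to 9.29, n = 8) were not grown on that plate, and their calls as lower (-1.52, -1.55, -1.33 and -1.33) were lost without it (-0.72, -0.75, -0.54 and -0.54) and with the plate as a term (-0.83, -0.84, -0.63 and -0.68). GMCSF, which was grown on it, was called higher (7.34 to 74.5 CPM, 1.36 ± 0.36) but differed by -0.06 and 0.68 within its plates. IFNb stayed under the minimum difference (0.88 ± 0.33, adjusted p = 0.0450), yet it was higher within each of its 3 plates, by 2.25, 1.51 and 1.04, and was called with the plate as a term (1.48, adjusted p = 5.47e-07).

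Irg1 was high in the LPS_hi cultures of 72 h, where Nos2 was low. Untreated cultures held 0 to 15.2 CPM. LPS_hi gave 53.9 to 259 CPM (5.36 ± 0.32, adjusted p = 1.13e-40), LPS_lo 33.8 to 188 (5.03 ± 0.34, adjusted p = 2.12e-33), IFNg 67.4 to 266 (5.27 ± 0.42, adjusted p = 2.11e-25) and TNFa with IFNg 159 to 269 (6.06 ± 0.38, adjusted p = 4.07e-38). None of these overlapped with untreated cultures. P3C gave 2.95 to 81.4 CPM (3.59 ± 0.42, adjusted p = 3.68e-13) and IC 0.386 to 8.48 (0.41 ± 0.42, adjusted p = 0.639).

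Second agents called lower for Irg1 beside LPS_lo at 72 h were IL10, TGFb and the mix of IL4, IL10 and IL13. The mix gave 8.30, 12.3, 1.63, 10.4 and 1.03 CPM, all below the lowest LPS_lo culture at 33.8 (-4.11 ± 0.50, adjusted p = 6.81e-12). IL10 alone gave 23.9, 39.7, 23.9, 29.9 and 17.3 CPM (-1.93 ± 0.50, adjusted p = 0.0244), with 1 culture inside the LPS_lo range, and TGFb gave 15.1 to 42.5 in 8, with some overlap (-1.99 ± 0.43, adjusted p = 8.74e-04). IL4 gave 29.7, 70.1, 84.1, 47.9 and 89.4 CPM (-0.76 ± 0.50, adjusted p = 0.799) and IL13 54.3, 73.4, 69.7, 66.5 and 102 (-0.50 ± 0.50, adjusted p = 1.00). The IL10 call was lost with the plate as a term (-1.43, adjusted p = 0.0931) and without cultures 1, 4 or 5 (-1.79 to -1.98). At 24 h resveratrol beside LPS_lo gave 126 to 240 CPM of Irg1, below all LPS_lo cultures (281 to 486). That difference was not called (-1.12 ± 0.48, adjusted p = 0.192), but it was -1.11 and -1.17 within plates and was called with the plate as a term (-1.22 ± 0.36, adjusted p = 0.0175). Neither ATP (624 to 1204 CPM, -0.70 ± 0.66) nor nicotine (703 to 2716, 0.12 ± 0.62) was called for Irg1 beside LPS_hi at 4 h, in the cultures where Nos2 was called lower.

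Sod2, the mitochondrial superoxide dismutase, had the smallest standard error of the members with LPS_hi. Untreated cultures of 24 h held 70.4 to 268 CPM. LPS_hi gave 1637 to 3263 CPM (4.15 ± 0.12, adjusted p = 3.63e-117), P3C 1400 to 2026 (3.82 ± 0.18, adjusted p = 2.27e-61), LPS_lo 1607 to 1893 (3.76 ± 0.17, adjusted p = 1.23e-65) and TNFa 658 to 904 (2.59 ± 0.17, adjusted p = 1.08e-36). All 4 ranges lay above every untreated culture. IC gave 244 to 1863 CPM (1.89 ± 0.16, adjusted p = 1.43e-24). IFNg (163 to 345 CPM, 0.83 ± 0.15, adjusted p = 3.23e-06) and IFNb (47.6 to 117 CPM, -0.78 ± 0.15, adjusted p = 5.76e-06) passed the p-value but not the minimum difference, in opposite directions.

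At 72 h Sod2 was 37 to 188 CPM in untreated cultures. TNFa with IFNg gave 834 to 1748 CPM (3.90 ± 0.19, adjusted p = 1.17e-54), LPS_hi 749 to 1576 (3.65 ± 0.16, adjusted p = 3.77e-62), LPS_lo 460 to 904 (2.79 ± 0.17, adjusted p = 1.99e-39) and P3C 537 to 761 (2.65 ± 0.21, adjusted p = 4.90e-26), without overlap. IFNg was called as well (168 to 279 CPM, 1.24 ± 0.21, adjusted p = 9.58e-07). The 3 cultures with TNFa alone held 39, 378 and 111 CPM (0.33 ± 0.28, adjusted p = 0.420).

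Against LPS_lo alone, IL4 held Sod2 at 220, 221, 197, 248 and 175 CPM (-1.63 ± 0.25, adjusted p = 1.67e-07), the mix at 119, 133, 116, 92.6 and 154 (-2.43 ± 0.25, adjusted p = 2.37e-16) and TGFb at 234 to 431 (-1.10 ± 0.21, adjusted p = 1.02e-04). IL10 gave 261, 287, 353, 368 and 295 CPM (-1.08 ± 0.25, adjusted p = 0.00603). All 4 groups lay below every LPS_lo culture. For IL10 the difference was -0.88 with the plate as a term (adjusted p = 0.0439), under the minimum. IL13 gave 513, 540, 496, 400 and 561 CPM, overlapping with LPS_lo, and was not called (-0.39 ± 0.25, adjusted p = 1.00).

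The 72 h cultures with TNFa alone were few and stood apart. They were 3 cultures of plate MGm161010D in which 1 CPM stood for 1.98, 1.98 and 2.36 reads, and Nos2, Irg1, Ass1 and Arg2 were listed at 0 in all 3. Irg1 was called lower than untreated (adjusted p = 0.0232), but since the group is at 0 the size of its fitted difference depends on the pseudocount. Leaving out any 1 of the 3 cultures lost that call, and leaving out culture 1 or 3 instead called Sod2 higher (1.12) or Gch1 lower (-2.06).

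The responses to 6 stimuli were compared directly between 24 h and 72 h in a fit of both times, a test added after the values were seen. Of 42 differences of responses, 15 were called. Nos2 answered LPS_hi by 6.80 ± 0.57 more at 24 h than at 72 h (adjusted p = 4.85e-26), and Slc7a2 by 2.20 ± 0.47 more (adjusted p = 2.30e-04). These were the 2 members called for LPS_hi, where 5.28% of all genes were called. For Irg1 the same difference was 0.03 ± 0.41. Nos2 also answered LPS_lo more at 24 h (3.29 ± 0.70, adjusted p = 4.28e-04), the 1 member called for LPS_lo in this fit, with 3.24% of all genes called. With the plate as a term this value was 1.87 ± 0.47, and Slc7a2 was called as well (2.24 ± 0.47, adjusted p = 2.11e-04). Nos2 answered P3C more at 72 h (-4.67 ± 0.81, adjusted p = 2.13e-06), by -2.98 ± 0.56 with the plate as a term. P3C called 3 members in this test (9.40% of all genes), IC 3 (4.39%), IFNg 2 (3.91%) and TNFa 4 (21.3%).

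Harvest time and culture plate cannot be told apart in these tests, since no plate held both times. Within lot May16 alone, LPS_hi gave 1480 to 2055 CPM of Nos2 in 4 cultures of 24 h and 0 to 43.3 in 13 of 72 h. The 24 h cultures of P3C, IC, IFNg and TNFa were of the lots Feb15 and March15. For every member their differences from 72 h therefore also compare lots. These include 2.07, 4.37 and 2.00 for Ass1 with P3C, IC and IFNg, and -4.67 for Nos2 with P3C. Levels of both genes differed between cultures of different lots, but the LPS_hi cultures of May16 at 24 h were all on plate MGm161010B. With LPS_hi for 24 h, mean Nos2 was 165 CPM in Feb15, 698 in March15 and 1782 in May16. Irg1 answered IFNg more at 72 h (-2.06 ± 0.55, adjusted p = 0.0101), and with the plate as a term this was -1.18 (adjusted p = 0.0790).

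Over the 98 culture conditions Irg1 and Sod2 moved most alike among the members (Pearson r of condition means on the log2 scale 0.89), followed by Irg1 with Ass1 (0.83) and with Nos2 (0.81). Arg2 had r of 0.22 to 0.47 with the others, and Slc7a2 0.32 to 0.64. Among 15134 genes the nearest to Nos2 were Cxcl9 (0.87), a chemokine, Traf1 (0.86) and Cd69 (0.85), and the nearest to Irg1 were Ehd1 (0.92), Tnf (0.91), the cytokine, and C3 (0.90), a complement protein. Sod2 had Ehd1 (0.93), Fpr2 (0.93), a formyl peptide receptor, and Ptges (0.92), which makes PGE2. Slc7a2 had Ch25h (0.78), Il1rn (0.78) and Src (0.74), Ass1 had C3 (0.86), Clec4e (0.85) and N4bp1 (0.83), Gch1 had Car13 (0.89), Pvr (0.84) and Tnfrsf1b (0.83), and Arg2 had Trem1 (0.78), Cav1 (0.74) and Pdpn (0.68). Conditions share plates, lots and stimuli, so these r values describe the panel and carry no test.

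The highest condition means of each member did not stand clear of the next. For Nos2 the order was LPS_lo with IFNg at 72 h (1837 ± 1085 CPM, SD), LPS_hi with estradiol at 24 h (969 ± 1050), LPS_hi at 24 h (850 ± 659) and TNFa with IFNg at 72 h (734 ± 712). For Irg1 it was LPS_hi at 4 h with nicotine (1769 ± 660), alone (1647 ± 722) and with norepinephrine (1525 ± 593). Slc7a2 was highest with LPS_hi at 24 h (1043 ± 358) and at 4 h (735 ± 135), then with LPS_lo and IL4 at 72 h (695 ± 295). Ass1 was highest with IC at 24 h (80.4 ± 27.5), Gch1 with LPS_hi at 4 h (84.9 ± 12.8) and Sod2 with LPS_hi and GABA at 24 h (2501 ± 690). In each of these orders, the ranges of neighbouring conditions overlapped.

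Lists of other genes of the same pathways were also compared between LPS_hi and untreated cultures at 24 h, where 6.17% of all genes tested were called higher and 12.8% lower. Of 5 tested genes of arginine supply and citrulline recycling (8 in the list), Slc7a7, an exporter of cationic amino acids, was the 1 called higher (12.2 to 87.7 CPM against 1.15 to 36; 1.28 ± 0.29, adjusted p = 5.64e-05). Of 10 for arginine, ornithine and polyamine use, the cytosolic arginase Arg1 rose (6.12 to 24.9 CPM against 0 to 7.33; 2.54 ± 0.33, adjusted p = 1.64e-12) and Sat1, which acetylates polyamines, fell (-1.05 ± 0.14). Median differences of these lists were 0.32 and -0.15, beside -0.21 over all genes tested.

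Gchfr, the feedback regulator of Gch1, was lower (-1.46 ± 0.35). Among 11 synthases, partners and inhibitors, Ddah2, which breaks down methylated arginines that inhibit the synthases (-1.95 ± 0.20), and Nostrin (-1.62 ± 0.27) were lower and the small GTPase Rac2 was higher, at 1855 to 4159 CPM against 435 to 1123 without overlap (2.15 ± 0.10, adjusted p = 3.60e-66, median of the list -0.41). Of 3 tested genes for nitric oxide receptors and denitrosylation, glutathione reductase Gsr was called higher (1.40 ± 0.21, median of the list -0.33).

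Around itaconate, 6 of 22 genes of citrate, aconitate and succinate metabolism were called lower and none higher (median -0.37), beside 12.8% of all genes called lower. The largest falls were Clybl, which takes part in breaking down itaconate (-1.84 ± 0.32), and the isocitrate dehydrogenases Idh2 (-1.76 ± 0.19) and Idh1 (-1.59 ± 0.18). At 72 h of LPS_hi the count was again 6 lower and none higher (median -0.52, beside -0.24 over all genes tested, of which 11.2% were called lower). Among 15 tested superoxide and peroxide genes, 3 were higher, namely Prdx5 (2.37 ± 0.12), a peroxiredoxin, Cybb (1.34 ± 0.15), the phagocyte NADPH oxidase subunit, and Txn1 (1.32 ± 0.19), and the glutathione peroxidases Gpx1 (-1.37 ± 0.22) and Gpx4 (-1.25 ± 0.13) were lower (median 0.17). In the same cultures 5 of 7 microglial markers were lower, their sum being 210 to 633 CPM against 1117 to 3411 in untreated cultures. Neutrophil markers summed to 0 to 61.2 CPM against 0 to 9.18, with S100a9, Ly6g, Ngp and Elane at a median of 0. The part of these in the members' differences was not tested.

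In mice injected with LPS, the 3 members that passed the filter on low genes were all called higher after 4 h (adjusted p under 0.05, with 22.4% of all genes called). Nos2 held 10.7, 13.5, 9.26 and 12.3 CPM in the 4 LPS mice and 0, 0.144, 0.989 and 1.16 in the 4 PBS mice (3.05 ± 0.36, adjusted p = 2.07e-05). Gch1 held 16.6, 22.4, 33.5 and 21.2 CPM against 3.34, 1.88, 6.73 and 2.17 (2.50 ± 0.32, adjusted p = 5.62e-05). Sod2 held 82.5, 107, 154 and 147 CPM against 39.4, 30.3, 42.4 and 33 (1.70 ± 0.20, adjusted p = 1.92e-05). Each LPS mouse was above each PBS mouse for all 3, but the share of all genes separated in this way is not given here. Nos2 and Gch1 passed the filter through the LPS mice, so the filter itself favoured a difference in them. The count of 3 therefore cannot be set against the 22.4%. In bulk samples such as these, fewer cells of a type and less RNA per cell cannot be told apart.

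The other members were low in these mice. Ass1 held 1.03, 0.910, 1.48 and 1.04 CPM with LPS and 0.196, 0, 0.198 and 0.145 with PBS, without overlap (exact 2-sided rank-sum p = 0.0286, the smallest that 4 against 4 allow). Slc7a2 held 2.35, 0.910, 1.80 and 4.55 CPM with LPS and 1.92, 6.39, 0.401 and 0.470 with PBS (exact p = 0.686). Arg2 held 1.41, 0, 2.36 and 0 CPM with LPS and at most 0.908 with PBS (exact p = 0.657). These 3 genes did not reach the filter of more than 5 CPM in at least 4 mice. Fitted without the filter, Ass1 would be called (0.90 ± 0.16, limma adjusted p = 0.00574), and Slc7a2 (0.29) and Arg2 (0.47) would not.

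**Figure D5:**
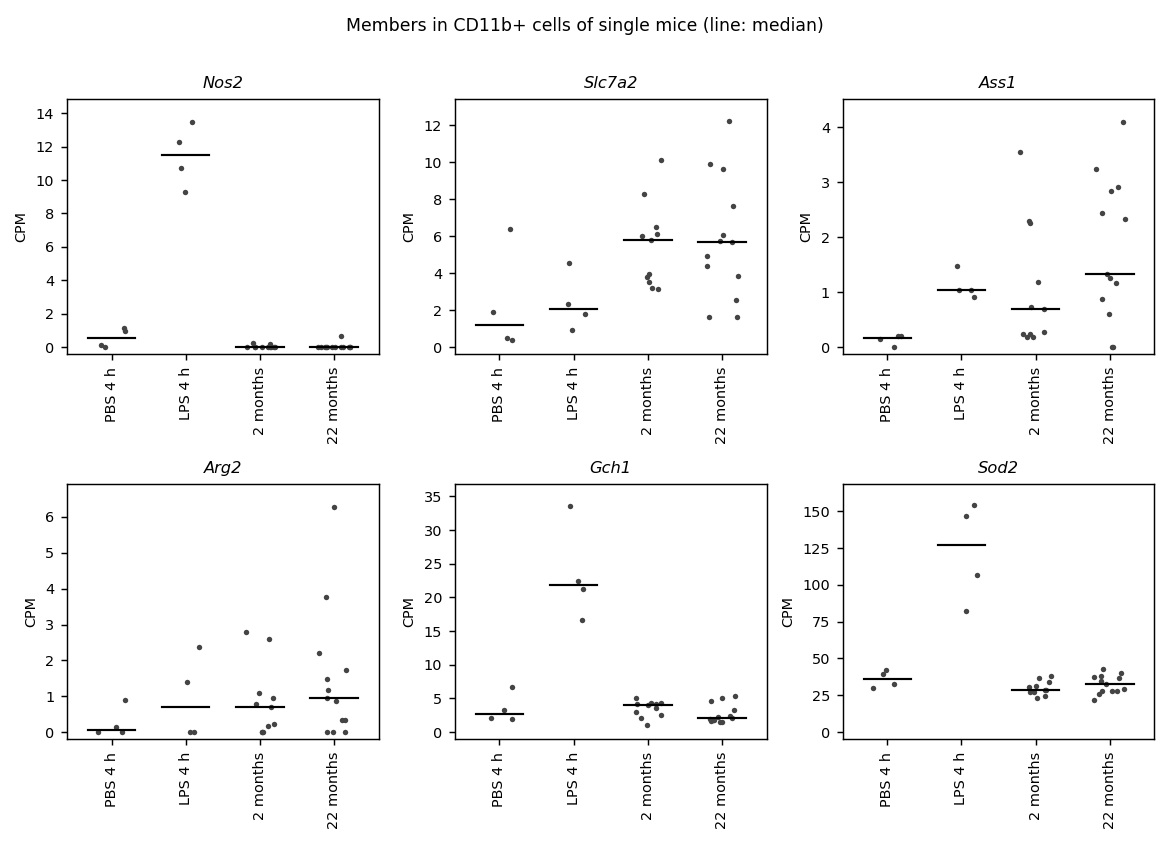
CPM of the 6 members listed in mice, 1 point for each mouse, with the median as a line. Nos2, Gch1, Sod2 and Ass1 (at most 1.48 CPM) are higher in all 4 LPS mice than in all 4 PBS mice. The share of all genes separated in this way is not given here. Mice of 2 and 22 months overlap for every member.

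In LPS mice 8.79% of all genes tested were called higher and 13.6% lower. Of the other pathway genes, Slc7a1, another arginine transporter, held 174 to 270 CPM against 75.8 to 90 (1.34 ± 0.16, adjusted p = 1.92e-05), and Slc7a7 also rose (0.81 ± 0.19), 2 of 4 tested for arginine supply. Of 15 superoxide and peroxide genes 4 rose, among them Txnrd1 (2.25 ± 0.24), Cybb (1.89 ± 0.19) and Ncf1 (0.73 ± 0.12). Azin1 (0.46 ± 0.15) and Rac2 (0.65 ± 0.13) rose, Sat1 (-0.57 ± 0.16) fell, and Idh1 (-0.81 ± 0.16) was the 1 of 22 citrate, aconitate and succinate genes that fell. Other cell types moved as well: the summed neutrophil markers were 142 to 259 CPM with LPS and 64.2 to 130 with PBS (3 of 4 tested higher, Mpo at a median of 0), and monocyte markers 61.1 to 113 against 23.2 to 54.9 (3 higher, Ccr2 lower). Their part in the members' values was not tested.

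Neither member that could be tested was called with age. Slc7a2 held 1.64 to 12.2 CPM (median 5.70) in 13 mice of 22 months and 3.14 to 10.1 (median 5.77) in 11 of 2 months (-0.02 ± 0.26, adjusted p = 0.991), and the difference was -0.74 and 0.31 within the 2 experiments. Sod2 held 21.5 to 42.6 CPM against 23 to 37.9 (0.11 ± 0.11, adjusted p = 0.819). With 0 of 2 members called and 3.32% of all genes called, limma gave 0 members at an unadjusted p under 0.05 and the rank-sum test 0. The 95% interval of the Sod2 difference was -0.13 to 0.34. Nos2 was at most 0.673 CPM in these mice, Gch1 1.07 to 5.36, Ass1 0 to 4.10 and Arg2 0 to 6.28, below the filter. Neutrophil markers summed to 306 to 3668 CPM in the older and 134 to 1070 in the younger mice, and T cell markers to 5.38 to 45.8 and 0.365 to 10.9 CPM. Their part in the members' values was not tested.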

How the data were processed

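RNA of 784 microglial cultures and of CD11b-selected cells of 32 mice had been sequenced with a 3′-end kit. The authors quantified reads with Salmon 0.7.1 and deposited CPM values, counts scaled to each library's mapped reads, per gene, 1 table for cultures and 1 for mice. The submitters' notes list the build mm8 without its role. Depth was read from the deposited CPM by taking the commonest value above 0 as 1 read. On that scale, 73.1 to 89.4% of values under 5.5 reads in a culture, and 83.3 to 90.2% in a mouse, lay within 0.1 of a whole number. All columns were matched to samples by their names, so 0 were left unmapped. Groups came from the labels. The 72 h culture named LPS_hi but labelled with the lower dose entered no comparison. The members and the pathway lists were chosen with earlier results of these data known.

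Differences were tested with limma 3.58.1 (R 4.3.3; moderated test with a trend) on log2(CPM + 1), for genes above 5 CPM in at least 4 samples of the fit, with Benjamini-Hochberg adjustment over all genes. Cultures of 24 h, 4 h (with untreated 24 h) and 72 h were fitted separately, over 14433, 12752 and 15464 genes, and mice over 9012 (LPS) and 10738 (age). Differences on this scale understate the change of low genes. The procedure was tested on simulated data. Of each other pathway list, up to 3 called genes in each direction were named, by size of difference, and of each member the 3 genes nearest by Pearson r over conditions. The count over the tetrahydrobiopterin list is not reported here. Alternatives were a pseudocount of 5, no filter, the plate or library pool (mice: experiment) as a term, an exact rank-sum test, and leaving out single samples in groups of up to 5. Promoters were RefSeq sequences of GRCm38.p6. Python 3.11.15, pandas 2.3.3, scipy 1.17.1 and matplotlib 3.10.9 were also used.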

Additional observations from a re-analysis of the deposited data

Results flagged for a closer look

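In 11 of 81 group values, 1 sample stood far from the rest of its group, by a critical value that about 1 in 20 groups of normally distributed values pass. At 24 h, the highest Sod2 with LPS_lo was 1893 CPM (others 1607 to 1722). A P3C culture had the lowest Slc7a2 at 23.9 CPM (others 222 to 618) and the lowest Sod2 at 1400 (others 1799 to 2026). The lowest Ass1 with IFNb was 2.19 CPM (others 11.3 to 29.9), and the lowest Slc7a2 with TGFb was 36.8 (others 104 to 185). At 72 h, the lowest Irg1 with P3C was 2.95 CPM (others 43.7 to 81.4) and the highest Sod2 with P3C was 761 (others 537 to 607). The lowest Slc7a2 with TNFa and IFNg was 1.42 CPM (others 25.3 to 56.0). With LPS_lo and IL4 the highest Nos2 was 2.52 CPM (others 0 to 0.133) and the lowest Slc7a2 was 179 (others 733 to 900). With LPS_lo, IL4, IL10 and IL13 the highest Nos2 was 0.738 CPM (others 0 to 0.146).

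Responses differed between 24 h and 72 h in 15 of 42 tests (24 h minus 72 h, log2 scale). For LPS_hi the difference was 6.80 for Nos2 and 2.20 for Slc7a2, and for LPS_lo 3.29 for Nos2. For P3C it was 2.07 for Ass1, -4.67 for Nos2 and 1.17 for Sod2. For IC it was 4.37 for Ass1, 3.20 for Irg1 and 2.04 for Sod2. For IFNg it was 2.00 for Ass1 and -2.06 for Irg1. For TNFa, whose 72 h group was the 3 shallow cultures, it was 4.22 for Ass1, 1.66 for Gch1, 4.55 for Irg1 and 2.26 for Sod2. Ass1 and Irg1 were listed at 0 in those 3 cultures, so 4.22 and 4.55 depend on the pseudocount and are no bounds. With the plate as a term 14 of these 15 were called again, and Irg1 with IFNg was not (-1.18, adjusted p = 0.0790). That fit also called 4 others, Ass1 with LPS_hi (1.15), Slc7a2 with LPS_lo (2.24) and Nos2 with IC (2.11) and IFNg (2.43), while Nos2 went from 3.29 to 1.87 with LPS_lo, and from -4.67 to -2.98 with P3C. Time and plate cannot be told apart, nor can time and lot of cells for P3C, IC, IFNg and TNFa.

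The single 72 h culture named LPS_hi but labelled with the lower dose entered no comparison. It held 104 CPM of Irg1 (untreated 0 to 15.2), 13.3 of Ass1 (untreated 0 to 6.20), 61.3 of Gch1 (untreated 0.161 to 29.1) and 491 of Sod2 (untreated 37 to 188).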

How the results depend on the processing

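Apart from leaving out single samples, 166 of 199 counts of called members stayed within 1.5 times and 33 moved. Of 1357 values of single members, 37 lost and 35 gained a call, and 0 changed direction while called. With a pseudocount of 5, IL10 called 0, TGFb 1, TNFa at 72 h 0, LPS_lo with IFNg 4 and P3C with PGE2 2. Without the filter, nicotine called 0 and P3C with PGE2 2. With the plate as a term, and with the library pool as a term, IL4, IL13, GMCSF and LPS_lo with IL10 called 1 each, IL10 and TGFb 0, and P3C with PGE2 3. The pool also gave 1 for norepinephrine. The rank-sum test was called at an unadjusted p under 0.05 with the same minimum difference, a threshold unlike the adjusted one of the main fit. It called 2 for IL10, TNFa at 72 h, LPS_lo with IL13 and P3C with PGE2, and 4 for LPS_lo with IFNg. Without plate MGm160926B, chosen after the data were seen like the tests between times, IL4, IL13, resveratrol and norepinephrine gave 1, IL10 0 and ATP 2. Leaving out 1 sample gave 0 to 1 for TNFa at 72 h, 1 to 3 for LPS_lo with IL10, 2 to 3 with IL4, 0 to 1 with IL13, 4 to 4 with the mix and 2 to 3 for LPS mice, where the filter then left out a gene. Over the 94 calls on members, the plate as a term kept 84, lost 10 and gained 7. Why calls moved was not tested. No paired analysis was possible because the labels give cultures and mice no replicate numbers; the plates and experiments they share were fitted as terms instead.

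Counts over all genes moved more. A pseudocount of 5 gave 1624 genes against 2739 for LPS_hi at 24 h, 1584 against 2901 for LPS_lo, 2120 against 3931 for P3C, 1051 against 1838 for IC, 972 against 2251 for IFNa, 749 against 1407 for IFNb, 919 against 1544 for IFNg, 405 against 715 for TNFa, 273 against 539 for IL4, 154 against 314 for IL13, 235 against 722 for GMCSF, 225 against 436 for TGFb, 2793 against 5044 for LPS_hi at 4 h and 1301 against 2303 at 72 h. The plate as a term gave 223 for IL4, 101 for IL13, 215 for TGFb, 765 against 458 for resveratrol and 220 against 82 for rapamycin. The pool gave 2490 for P3C and 1675 against 3474 for TNFa at 72 h. The experiment as a term gave 1080 against 357 for age, and a minimum fold of 2 gave 751 against 2017 for LPS mice. Depth limits low values, since 1 CPM was about 1 read in the shallowest culture.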
